A study of Mus musculus with 4 samples.

Results

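The ligands, receptors and inhibitors of the interleukin-1 family were followed in the small intestine of mice that carry a CFLARs transgene. The group was fixed by name, with earlier results of these data known. It holds 9 genes: Il1a, Il1b, Il1rn, Il1r2, Il1rap, Il18, Il18r1, Il33 and Il1rl1. A gene was measured by the probe sets annotated with its symbol alone, and 8 of the 9 had 1 such probe set, out of 19938 genes named on the array. Il1rl1, the IL-33 receptor, had none and was not analysed here. The data are 4 Affymetrix arrays of total small-intestinal RNA, 2 from wild-type and 2 from CFLARs Tg mice, all of the C57BL/6 strain. The series concerns necroptosis of gut epithelium and ileitis in preterm mice, and these arrays compare the genotypes. CFLARs is the short form of the caspase-8 regulator cFLIP. The titles end in XX and XY for wild-type (replicates 1 and 2) and in XCFX and XCFY for CFLARs Tg (replicates 1 and 2). They read as a female and a male array of each genotype, with the transgene on an X chromosome, which the labels do not spell out. Sex and any difference in transgene dose between the CFLARs Tg arrays cannot be told apart. No source used here gives the promoter of the transgene, the age of each mouse or the number of animals behind an array, so p-values measure the spread between these arrays only, which may be technical in part.

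Interleukin-1 alpha and interleukin-1 beta bind the same receptor, Il1r1, which signals once the accessory chain Il1rap has joined it. Interleukin-1 alpha acts as an alarm signal when damaged cells release it, whereas the interleukin-1 beta precursor has to be cleaved, chiefly by caspase-1, before it is active. The pathway is held in check by the receptor antagonist Il1rn, which occupies Il1r1 without signalling, and by the decoy receptor Il1r2, which binds ligand but lacks the signalling domain. Interleukin-18, made by intestinal epithelium among other cells, acts through Il18r1 and Il18rap, and interleukin-33, a nuclear protein of stromal, endothelial and epithelial cells, through Il1rl1 and Il1rap. Il1r1 was not analysed here.

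The genes lie in clusters. In the RefSeq gene table of GRCm38.p6, Il1r2, Il1r1, Il1rl2, Il1rl1, Il18r1 and Il18rap followed each other on chromosome 1. Il1rn stood on chromosome 2 beside the interleukin-36 group of ligands, and Il1a and Il1b were its next relatives there. Il18 lay on chromosome 9, Il1rap on chromosome 16 and Il33 on chromosome 19. The 250 bases before the annotated start of the 4 members that rose are printed here. They come from RefSeq on GRCm38.p6. Il1a is at chr2:129309973-129310222 (minus strand), Il1b at chr2:129371140-129371389 (minus strand), the first of 3 annotated starts of Il1rn at chr2:24336610-24336859 (plus strand) and Il1r2 at chr1:40085843-40086092 (plus strand). Capitals mark matches to the AP-1 motif TGANTCA or the STAT (GAS) motif TTCNNNGAA, searched on both strands. The kappaB consensus was searched as well.
Il1a: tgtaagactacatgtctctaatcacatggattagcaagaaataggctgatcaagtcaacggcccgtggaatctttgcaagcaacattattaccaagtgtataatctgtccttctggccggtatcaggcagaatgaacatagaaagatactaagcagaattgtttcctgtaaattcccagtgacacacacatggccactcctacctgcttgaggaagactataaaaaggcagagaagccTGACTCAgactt
Il1b: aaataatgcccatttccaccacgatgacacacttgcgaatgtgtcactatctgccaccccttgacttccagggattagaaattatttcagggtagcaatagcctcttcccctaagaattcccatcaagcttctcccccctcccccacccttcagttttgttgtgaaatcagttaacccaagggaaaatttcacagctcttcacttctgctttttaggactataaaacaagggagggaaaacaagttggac
Il1rn: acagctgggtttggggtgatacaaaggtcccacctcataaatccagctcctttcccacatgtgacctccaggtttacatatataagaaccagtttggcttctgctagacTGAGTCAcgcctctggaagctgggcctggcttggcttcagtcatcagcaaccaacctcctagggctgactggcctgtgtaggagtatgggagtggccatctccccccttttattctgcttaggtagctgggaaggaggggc
Il1r2: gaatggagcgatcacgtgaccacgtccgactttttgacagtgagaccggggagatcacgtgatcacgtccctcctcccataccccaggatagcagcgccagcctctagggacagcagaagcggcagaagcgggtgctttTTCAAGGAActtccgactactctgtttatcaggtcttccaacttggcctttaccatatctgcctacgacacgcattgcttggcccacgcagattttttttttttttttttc
Il1a and this start of Il1rn each held 1 AP-1 match and Il1r2 held 1 GAS match, while the Il1b window held 0 matches to any of the 3 motifs. Over the 15 windows of all 9 genes there were 2 AP-1 matches, 3 GAS matches (2 of them in a window of Il18r1, which did not rise) and 0 kappaB matches. Over all 32841 windows of this length, 6.75% held an AP-1 match, 7.02% a GAS match and 7.25% a kappaB match. These letters are descriptions of the windows, and which start the probe sets report on is not known here.

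All values are log2 expression, and the difference is CFLARs Tg minus wild-type, with the moderated standard error (SE) and p-values adjusted over all 13956 genes fitted with limma. The 4 arrays had nearly the same distribution, with medians between 8.31 and 8.33. As a scale for background, Y-linked genes of the XX-type arrays and Xist of the XY-type arrays were read, which gave 5.13 to 6.78. The 12 epithelial markers had wild-type means from 10.59 to 14.12, so the defining markers of the labelled tissue were present. Liver and pancreas markers varied between arrays, with means over 8 genes of 9.25 and 10.57 in wild-type and 9.05 and 7.73 in CFLARs Tg. All 8 measured members passed the filter on low values, a mean of at least 7.48 over the 4 arrays, but Il1b and Il1r2 had wild-type means under 7.48 and passed through the CFLARs Tg arrays.

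Both interleukin-1 ligands, their antagonist and the decoy receptor were higher in CFLARs Tg intestine. Of the 8 members, 4 rose (Il1a, Il1b, Il1rn and Il1r2), 0 fell and 4 were not called. Among all genes fitted, 19.3% were called and 8.44% rose. Both CFLARs Tg arrays lay above both wild-type arrays in 6 of the 8 members, as they did in 32.0% of all genes fitted. The median difference of the 8 members was 1.14, against -0.01 over all genes fitted. Il1b ranked 25 among the 13956 differences, Il1r2 39, Il1a 45 and Il1rn 71. Il1b and Il1r2 had passed the filter through the CFLARs Tg arrays. The members were chosen with earlier results of these data known, so these values are descriptions. In bulk tissue, more cells of a type and more RNA per cell cannot be told apart.

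**Figure D1:**
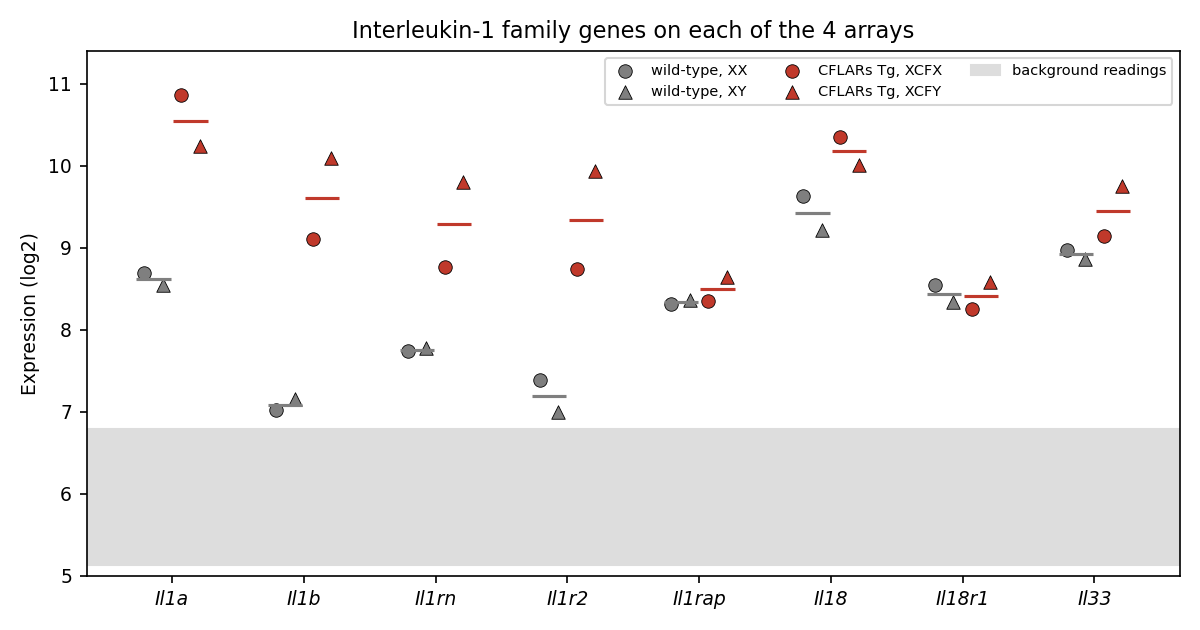
Expression (log2, vertical axis) of the 8 measured interleukin-1 family genes on each array; circles are XX-type and triangles XY-type arrays, grey wild-type and red CFLARs Tg, short lines the mean of 2 arrays, and the grey band the background readings of 5.13 to 6.78. Il1a, Il1b, Il1rn and Il1r2 lie above both wild-type arrays on both CFLARs Tg arrays, and Il1rap and Il18r1 overlap.

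Il1b, the ligand that needs cleavage, read 7.02 and 7.15 on the wild-type arrays and 9.11 (XCFX) and 10.09 (XCFY) on the CFLARs Tg arrays. The wild-type readings lay just above the background scale, so the difference may understate the change in RNA, and the groups did not overlap. Il1b rose 5.71-fold (log2 difference 2.51, SE 0.33, adjusted p = 0.0207). Il1a, the alarm ligand, read 8.69 and 8.55 in wild-type and 10.86 (XCFX) and 10.24 (XCFY) in CFLARs Tg. It was the only one of the 4 risers with its higher CFLARs Tg reading on the XCFX array. Il1a rose 3.81-fold (log2 difference 1.93, SE 0.21, adjusted p = 0.0179).

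The inhibitors rose with the ligands. Il1rn, the receptor antagonist, read 7.74 and 7.78 in wild-type, a spread of 0.03 (SD, n = 2), and 8.76 (XCFX) and 9.80 (XCFY) in CFLARs Tg. The 2 CFLARs Tg arrays stood apart by about as much as the lower one stood above wild-type. Il1rn rose 2.88-fold (log2 difference 1.53, SE 0.35, adjusted p = 0.0462), and its call was lost without a filter on low values (adjusted p = 0.0512). Il1r2, the decoy receptor, read 7.38 and 6.99 in wild-type and 8.73 (XCFX) and 9.94 (XCFY) in CFLARs Tg. It had the widest spread between the CFLARs Tg arrays of any member (SD 0.85). Il1r2 rose 4.44-fold (log2 difference 2.15, SE 0.42, adjusted p = 0.0351).

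All 4 calls were lost when either wild-type array was left out, while the differences stayed. Without wild-type replicate 1, 0.244% of all genes fitted rose and 0 members passed (limma), with adjusted p of 0.125 for Il1a, 0.160 for Il1b, 0.183 for Il1r2 and 0.220 for Il1rn. Without wild-type replicate 2, 0.265% of genes rose and again 0 members passed (limma), with 0.125 for Il1a, 0.128 for Il1b, 0.170 for Il1r2 and 0.186 for Il1rn. The 4 log2 differences were between 1.51 and 2.58 in these fits, in which the lone wild-type array is assumed to vary like the CFLARs Tg arrays. When limma's treat asked for more than 0.5 on the log2 scale, 0.380% of genes rose and 0 members passed, with adjusted p from 0.108 for Il1a to 0.655 for Il1rn among the 4 that had risen, and 1 for the other 4; unadjusted limma p-values under 0.05 against no difference were found for 5 of the 8 members and for 5457 of the 13956 genes fitted.

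Neither measured member of the interleukin-18 arm was called. Il18 itself read 9.63 and 9.22 in wild-type and 10.35 (XCFX) and 10.002 (XCFY) in CFLARs Tg. The XX-type array of each genotype was the higher one, and the groups did not overlap. Its difference of 0.75 (SE 0.18, 95% interval 0.27 to 1.23) missed the threshold (adjusted p = 0.0533). With sex type as a block, when 10.1% of all genes rose, Il18 was called (adjusted p = 0.00719), as it also was without CFLARs Tg replicate 1 (0.58, adjusted p = 0.0361), when 22.3% of all genes rose, or replicate 2 (0.92, adjusted p = 0.0131), when 14.1% did. Il18r1, the binding chain of the receptor, read 8.54 and 8.33 in wild-type and 8.25 (XCFX) and 8.58 (XCFY) in CFLARs Tg. Its groups overlapped, with a difference of -0.02 (SE 0.14, 95% interval -0.39 to 0.34, adjusted p = 0.916).

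Il33 read 8.97 and 8.86 in wild-type and 9.14 (XCFX) and 9.75 (XCFY) in CFLARs Tg. The XCFY array stood well above the other 3, and its difference of 0.53 (SE 0.21, 95% interval -0.02 to 1.08) was not called (adjusted p = 0.139). Without CFLARs Tg replicate 1 the difference of Il33 was 0.83, and without replicate 2 it was 0.22. Such fits leave a lone CFLARs Tg array, which is assumed to vary like the wild-type arrays. Il1rap, the accessory chain shared by the interleukin-1, interleukin-33 and interleukin-36 receptors, read 8.31 and 8.36 in wild-type and 8.35 (XCFX) and 8.64 (XCFY) in CFLARs Tg. The XCFX reading fell between the wild-type readings, and the difference was 0.15 (SE 0.11, 95% interval -0.14 to 0.45, adjusted p = 0.359). Without CFLARs Tg replicate 1 the difference of Il1rap was 0.30, and without replicate 2 it was 0.01.

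The members differed in how the XX-type and XY-type pairs compared. The difference of XCFX against XX and of XCFY against XY was 2.09 and 2.94 for Il1b, 1.36 and 2.95 for Il1r2, 1.03 and 2.03 for Il1rn and 0.17 and 0.89 for Il33. It was 2.16 and 1.69 for Il1a, the reverse order, and 0.72 and 0.78 for Il18. Each pair is 1 array against 1, so these differences have no test. The higher value was that of the XY-type pair for 3 of the 4 members that rose and for 71.2% of the 1178 genes that rose. Without CFLARs Tg replicate 1, and then without replicate 2, the log2 difference was 3.003 and 2.02 for Il1b, 2.75 and 1.55 for Il1r2, 2.05 and 1.01 for Il1rn and 1.62 and 2.24 for Il1a.

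**Figure D2:**
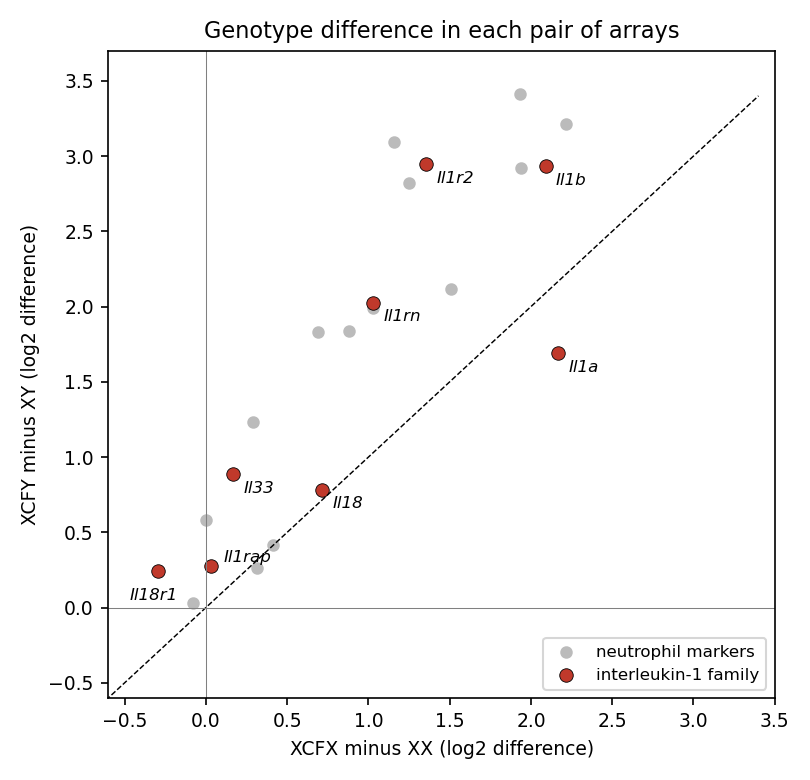
Log2 difference of XCFX against XX (horizontal axis) and of XCFY against XY (vertical axis) for the 8 interleukin-1 family genes (red) and 14 neutrophil markers (grey); the dashed line marks equal differences. Il1b, Il1r2 and Il1rn lie above the line with most neutrophil markers, and Il1a (2.16 and 1.69) lies below it.

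Among the relatives outside the group, the interleukin-18 inhibitor and a ligand of the interleukin-36 branch were higher. Of the 11 other family genes measured, 3 passed the filter, of which 1 rose and 0 fell, while 8.44% of all genes fitted rose. Il18bp, which neutralises interleukin-18, read 9.24 and 9.25 in wild-type and 9.74 (XCFX) and 9.61 (XCFY) in CFLARs Tg, a rise of 0.43 (SE 0.07, adjusted p = 0.0258). It lost its call without wild-type replicate 1 or 2 (adjusted p = 0.216 and 0.178). Il1rl2, the interleukin-36 receptor, differed by 0.37 (adjusted p = 0.139), and Sigirr, an inhibitory receptor of the family, by -0.44 (adjusted p = 0.0803, or 0.0385 with sex type as a block).

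The other 8 relatives lay under the filter and were tested only in the fit without it, where 5.31% of 19938 genes rose. Il1f9, which encodes interleukin-36 gamma, read 6.27 and 6.13 in wild-type and 7.82 (XCFX) and 8.52 (XCFY) in CFLARs Tg. It rose (measured log2 difference 1.97, SE 0.23, adjusted p = 0.0193 without a filter), and because its wild-type readings lay within the background scale this difference is a lower bound. Il18rap, the signalling chain of the interleukin-18 receptor, read 7.22 and 7.06 in wild-type and 7.62 (XCFX) and 7.73 (XCFY) in CFLARs Tg, a rise of 0.54 (adjusted p = 0.0279 without a filter). The interleukin-36 genes Il1f6 and Il1f8, the interleukin-36 antagonist gene Il1f5, Il1f10, and the brain-associated Il1rapl1 and Il1rapl2 differed by -0.20 (Il1rapl1) to 0.04 and were not called, with lowest adjusted p 0.108 for Il1rapl1. The means of Il1f6, Il1f8, Il1f5, Il1f10 and Il1rapl2 lay within the background scale in both genotypes, and that of Il1rapl1 did in CFLARs Tg. Whether the RNA of these genes changed cannot be read from such values. On chromosome 1, the receptor genes that neighbour each other thus gave 2.15 for Il1r2, 0.37 for Il1rl2, -0.02 for Il18r1 and 0.54 for Il18rap.

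**Figure D3:**
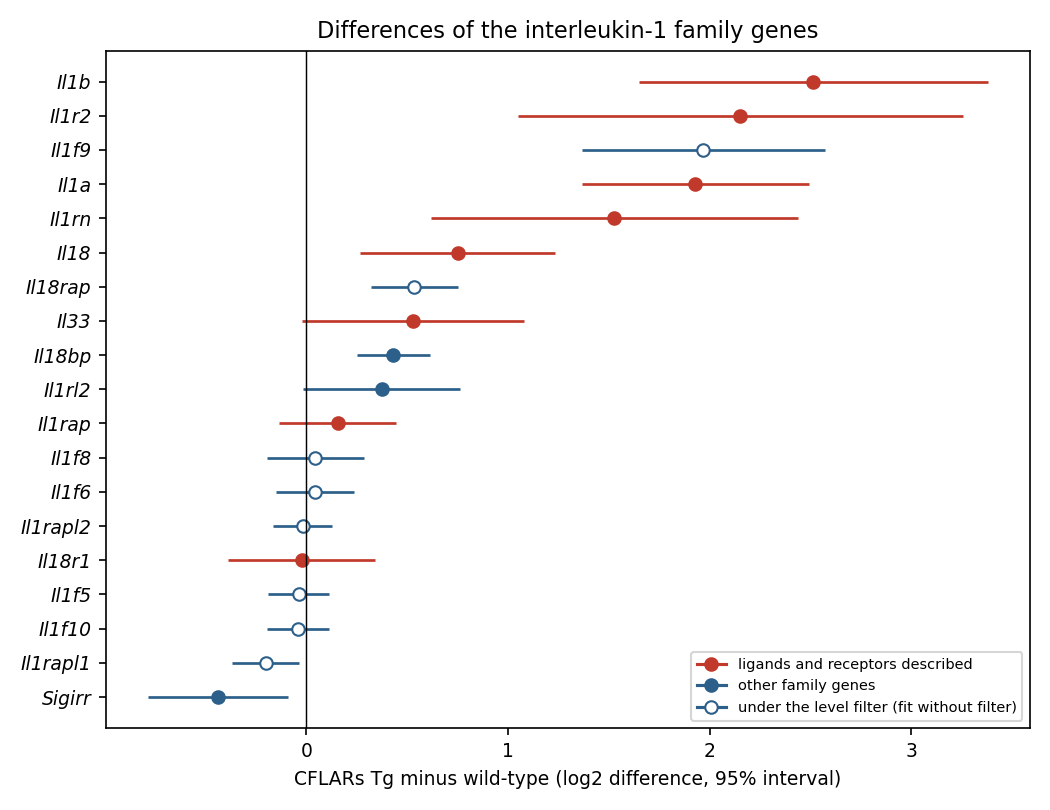
CFLARs Tg minus wild-type (log2 difference, with the 95% interval of the limma fit, n = 2 arrays a group) for the 8 members (red) and 11 other interleukin-1 family genes (blue); open symbols are genes under the filter, from the fit without a filter. Il1b, Il1r2, Il1a and Il1rn lie between 1.53 and 2.51 and Sigirr lowest at -0.44; Il1f9, at 1.97, was within the background scale in wild-type, so its point is a lower bound with no settled rank.

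Genes that process the ligands went both ways. Of 24 measured, 14 were fitted, of which 3 rose and 4 fell, with a median of -0.01. Over all 13956 genes fitted, 1178 rose and 1517 fell. Casp4, the mouse caspase-11 gene of the non-canonical inflammasome, rose 2.10-fold (9.19 and 9.25 against 10.31 and 10.27, adjusted p = 0.00541). Capn2, a calpain gene, rose by 0.50 and Casp8 by 0.37, while the calpain gene Capn1, whose protease family trims the interleukin-1 alpha precursor, fell by 0.44. The inflammasome sensor gene Nlrp6 fell by 0.69, and Naip6 and Naip2, sensors of bacterial proteins, fell by 0.56 and 0.37. Naip2 was chosen after its value was seen, and the Naip genes are close copies whose probes may cross-react. Casp1, which cleaves interleukin-1 beta and interleukin-18, read 10.11 and 10.10 in wild-type and 10.40 and 10.04 in CFLARs Tg (difference 0.12, adjusted p = 0.539), and Pycard, its adaptor, differed by -0.30 (adjusted p = 0.0689). Nlrp3, under the filter, read 6.54 and 6.56 in wild-type and 7.27 and 7.66 in CFLARs Tg; these 3 genes were chosen after their values were seen. In the fit without a filter, when 5.31% of all 19938 genes rose, 7 of the 24 rose and 4 fell. The genes called there in addition were Gzmb (1.60, adjusted p = 0.0369), Mcpt1 (1.36, 0.0234), Nlrp3 (0.92, 0.0255) and Mefv (0.44, 0.0401), also named after their values were seen. The wild-type means of Gzmb, Mcpt1 and Nlrp3 lay within the background scale. The calls of the 7 genes that passed with the filter were lost without wild-type replicate 1 or 2. With all arrays 9 of the 14 had an unadjusted limma p under 0.05, as did 5457 of all 13956 genes fitted.

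Few signalling genes below the receptors were called. Of 19 fitted, 0 rose and 1 fell, with a median of 0.07, while 1178 of all 13956 genes fitted rose and 1517 fell. Both CFLARs Tg arrays lay above both wild-type arrays for 9 of the 19, as in 32.0% of all genes fitted. An unadjusted limma p under 0.05 was found for 5 of the 19, and for 5457 of all genes fitted. With sex type as a block 3 rose and 0 fell, when 10.1% of all genes rose. Tab1, which activates the kinase TAK1, fell by 0.26 (adjusted p = 0.0394), a call lost without a filter (0.0503), with sex type as a block (0.0613) and without wild-type replicate 1 or 2 (0.311 and 0.274). Irak3, which restrains the pathway, differed by 0.78 (8.22 and 8.28 against 8.76 and 9.31, adjusted p = 0.0523, or 0.0178 with sex type as a block). Ube2n differed by 0.50 and Myd88, the shared adaptor, by 0.33 (adjusted p = 0.0634 and 0.0863, or 0.0360 and 0.0469 with the block).

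Genes known to be induced by interleukin-1, which other cytokines and microbial products induce too, were higher. Of 20 measured, 15 were fitted, and all 15 rose, with a median of 1.32, against 1.01 over all 20. Among all genes fitted, 8.44% rose. The list was assembled with earlier results of these arrays known, and Cxcl2, Saa3 and Cxcl1 had wild-type means under the cutoff of 7.48. The chemokine gene Cxcl2 read 6.38 and 6.47 in wild-type and 10.39 and 11.27 in CFLARs Tg, the acute-phase gene Saa3 7.03 and 6.997 against 11.02 and 11.61, and the chemokine gene Ccl20 8.42 and 8.51 against 11.57 and 11.52. Lcn2, which binds bacterial siderophores, rose by 2.11 (1.39 without CFLARs Tg replicate 2, and adjusted p = 0.0530 without a filter, where Cebpd was lost too at 0.0550), and Ccl2, which attracts monocytes, by 1.65. Nfkbia, the feedback inhibitor of NF-kB, rose by 1.56. Without wild-type replicate 1, 5 of the 15 passed, and without replicate 2, 4 did, namely Ccl20, Icam1, Nfkbia and Saa3; Icam1, Cxcl1 and Cebpd were chosen after their values were seen. The 5 genes under the filter differed by 1.18 (Cxcl5, adjusted p = 0.0199 without a filter), 0.41 (Mmp3), 0.26 (Il6), -0.07 (Csf3) and -0.18 (Csf2), and the last 4 were not called there. The means of Mmp3, Il6 and Csf2 lay under the top of the background scale in both genotypes, so their induction cannot be judged here. Cxcl2 and Cxcl5 had wild-type means within the background scale, so their differences are lower bounds.

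Genes listed as induced by interleukin-18 through interferon-gamma rose in part, while Ifng itself was not called. Of 8 fitted, 5 rose and 0 fell, with a median of 0.68, while 8.44% of all genes fitted rose. Cxcl11 had a wild-type mean under the cutoff and passed through the CFLARs Tg arrays. The chemokine genes Cxcl9, Cxcl10 and Cxcl11 rose by 3.68, 2.87 and 1.07, the granzyme gene Gzma by 0.82 and Socs1, a feedback inhibitor, by 0.55. The calls of Cxcl11, Gzma and Socs1 were lost without wild-type replicate 1 or 2. Irf1 (0.49), Prf1 (0.07) and Ciita (0.05) were fitted and not called. Ifng, under the filter, read 7.19 and 7.14 in wild-type and 7.46 and 7.80 in CFLARs Tg (limma adjusted p = 0.0764 without a filter). Irf1, Prf1, Ciita and Ifng were named after their values were seen. Whether interleukin-18 had a part in these rises was not tested. Of the genes downstream of interleukin-33, 3 of 10 measured were fitted and 1 rose, the eosinophil chemokine gene Ccl24 (by 0.81, adjusted p = 0.0353, or 0.188 and 0.183 without wild-type replicate 1 and 2). Csf2rb differed by 1.07 (adjusted p = 0.0639, or 0.0186 with the block) and Il13 by 0.17 (adjusted p = 0.108). Without a filter, when 5.31% of all 19938 genes rose, 2 of the 10 rose, Ccl24 and Retnlb, a goblet cell gene named after its values were seen. Retnlb read 6.12 and 6.07 in wild-type, within the background scale, and 7.53 and 8.58 in CFLARs Tg (adjusted p = 0.0322 without a filter).

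**Figure D4:**
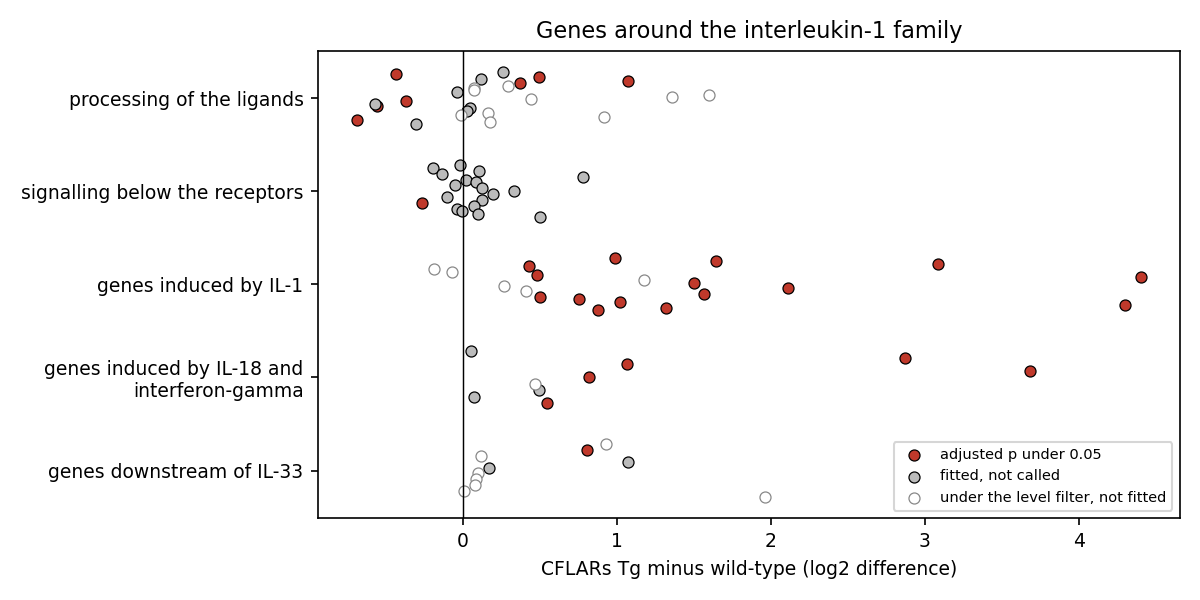
CFLARs Tg minus wild-type (log2 difference, horizontal axis) for each gene of 5 lists around the interleukin-1 family; red points were called (limma adjusted p under 0.05), grey points were fitted and not called, and open points were under the filter. All 15 fitted genes induced by interleukin-1 lie to the right of 0, while the signalling genes centre on 0.07.

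Among the marker lists of cells that may make or carry these molecules, the neutrophil list had the most genes that rose. Of 14 neutrophil markers 9 were fitted. S100a9, S100a8, Cxcr2, Ly6g and Csf3r, 5 of the 9, had wild-type means under the cutoff and passed through the CFLARs Tg arrays. Of the 9 fitted, 6 rose, these 5 and Ltf, with a median of 1.51, while 8.44% of all genes fitted rose. The filter thus let in markers that were high in CFLARs Tg, which raises their share. Without a filter, when 5.31% of all 19938 genes rose, 6 of the 14 markers rose. Their mean over 14 genes was 7.18 and 7.29 in wild-type, with 5 markers at or under the top of the background scale, and 8.14 (XCFX) and 9.13 (XCFY) in CFLARs Tg, with 0 there. S100a9 rose by 2.71, S100a8 by 2.67 (1.76 without CFLARs Tg replicate 2, and adjusted p = 0.0516 without a filter), Cxcr2 by 2.43, Ly6g by 1.81, Csf3r by 1.51 and Ltf by 0.41. S100a8 and Cxcr2 were among the 5 markers with a wild-type mean within the background scale, so their differences are lower bounds. The array order of this mean, XCFY above XCFX above wild-type, was that of Il1b, Il1rn, Il1r2 and Il33, and differed from that of Il1a. The monocyte and macrophage, the mast cell, and the T and NK cell means had the same order. Among all genes that rose, 71.2% had the larger difference in the XY-type pair. Without wild-type replicate 1 or 2, 0 neutrophil markers passed in limma, and without CFLARs Tg replicate 1 or 2 the list's median was 2.08 or 1.14. The part of these cells in the members' differences was not tested.

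Monocyte and macrophage markers had means over 13 genes of 8.84 and 8.87 in wild-type and 9.11 and 9.59 in CFLARs Tg. Of 12 fitted, 0 were called in limma and 6 had an unadjusted p under 0.05, as did 5457 of all genes fitted. With sex type as a block 6 rose, when 10.1% of all genes did. The largest differences were those of Itgam (1.22), Cd14 (1.11), Lyz2 (0.99) and Fcgr3 (0.91). Adgre1, Csf1r and Cx3cr1, whose groups overlapped, differed by 0.15, 0.04 and -0.12. The last genes were named after their values were seen. Mast cell markers had means over 11 genes of 7.49 and 7.41 in wild-type and 7.77 and 7.96 in CFLARs Tg. Of 7 fitted, 2 rose, the protease gene Mcpt2 (by 1.16) and Hdc (by 1.13). The defining markers Fcer1a and Ms4a2 stayed within the background scale on all 4 arrays. Of all 13956 genes fitted, 1178 rose and 1517 fell. Markers of group 2 innate lymphoid cells, which carry the interleukin-33 receptor, had means over 9 genes of 7.92 and 7.86 against 7.78 and 7.75. Rora fell by 0.25 and Hpgds by 0.63 among 4 fitted, and the call of Rora was lost without a filter and with the block (adjusted p = 0.0567 and 0.0698). Without a filter, when 1335 of all 19938 genes fell, 2 of the 9 fell, Hpgds and Il7r. Il7r differed by -0.52 (limma adjusted p = 0.0193 without a filter) and was named after its value was seen.

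T and NK cell markers had means over 10 genes of 7.01 and 7.05 in wild-type and 7.12 and 7.15 in CFLARs Tg, with 1 of 3 fitted genes higher (Gzma, also on the list of genes induced by interleukin-18) and 4 markers within the background scale in both groups. Group 3 innate lymphoid cell markers had 2 fitted genes, Ahr and Kit, with differences of -0.11 and 0.03. Epithelial markers had means of 12.50 and 12.53 in wild-type and 12.64 and 12.28 in CFLARs Tg, with a median difference of -0.08 over 12 genes. Krt20, Krt18 and Krt8, keratin genes, rose by 1.35, 0.64 and 0.33. The enterocyte genes Lct, Fabp1 and Fabp2 differed by -1.49, -0.81 and -0.72, with both CFLARs Tg arrays below both wild-type arrays, and were not called (adjusted p = 0.103, 0.141 and 0.127; Lct was called with sex type as a block, at 0.0410); these 3 were chosen after their values were seen. Fibroblast markers had 0 of 9 genes called in limma (0 with an unadjusted p under 0.05; 11.38 and 11.37 against 11.31 and 11.45), and endothelial markers had 3 of 8 lower, Emcn, Kdr and Tek, by 0.36, 0.30 and 0.29 (10.46 and 10.40 against 10.21 and 10.32). Of all 13956 genes fitted, 1178 rose and 1517 fell. Without a filter Kdr and Tek were not called (limma adjusted p = 0.0565 and 0.0551). The calls of Krt20, Krt18, Krt8, Mcpt2, Hdc, Rora, Hpgds, Gzma, Emcn, Kdr and Tek were lost without wild-type replicate 1 or 2.

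**Figure D5:**
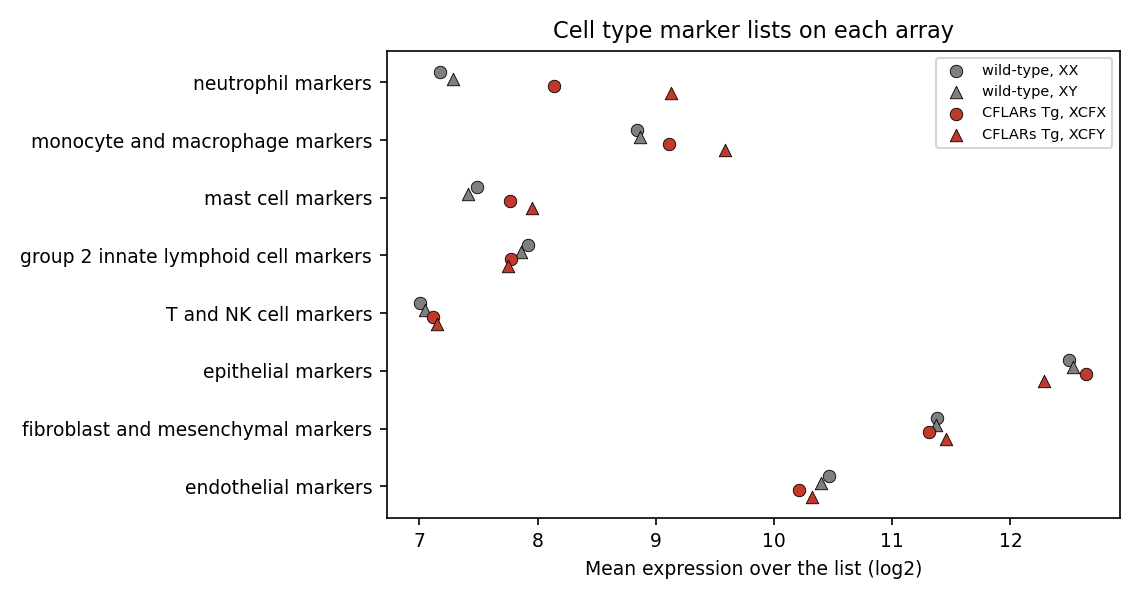
Mean expression over each marker list (log2, horizontal axis) on each array; circles are XX-type and triangles XY-type arrays, grey wild-type and red CFLARs Tg. The neutrophil mean lies at 7.18 and 7.29 in wild-type and at 8.14 and 9.13 in CFLARs Tg, without overlap.

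The genes with the most similar pattern differed between the members. Likeness was measured as the root mean square distance between 2 genes' log2 values over the 4 arrays, each centred on its own mean, and it describes 4 arrays only. Nearest to Il1b were Acod1 (distance 0.06), which makes itaconate in activated macrophages, Tnip3 (0.06), an inhibitor of NF-kB signalling, and Lilrb4a (0.10), an inhibitory receptor of myeloid cells. Acod1 read 7.34 and 7.44 in wild-type and 9.28 and 10.36 in CFLARs Tg. Lilrb4a (0.20) and Acod1 (0.23) were also the nearest of Il1r2, followed by Serpina3n (0.23). Nearest to Il1rn were Plek (0.08), a leukocyte and platelet gene, Tat (0.09) and Chil1 (0.12). Acod1, Tnip3, Lilrb4a, Tat and Chil1 read under the cutoff of 7.48 on both wild-type arrays and passed the filter through the CFLARs Tg arrays. The wild-type readings of Tnip3 (6.30 and 6.58) lay within the background scale.

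Il1a had other neighbours, BC023105 (0.09), the sulfotransferase gene Sult6b2 (0.16) and Gml (0.19). BC023105 read 6.83 and 6.44 in wild-type and 8.86 and 8.27 in CFLARs Tg, higher on the XX-type array of each genotype, as Il1a was. BC023105 too passed the filter through the CFLARs Tg arrays. Il18 lay nearest to Bcl2l15 (0.08), the transglutaminase gene Tgm1 (0.10) and the ubiquitin ligase gene Mid1 (0.10), each of which rose. A distance under 0.2 was met by 4 genes for Il1a, 7 for Il1b, 16 for Il1rn, 1 for Il1r2 and 82 for Il18. It was met by 1106 genes for Il33, nearest Itgax, Cip2a and Fxyd5, by 9274 for Il1rap, nearest Sash3, Uxt and Kbtbd2, and by 9155 for Il18r1, nearest Etfbkmt, Sh3pxd2a and Cklf, since genes that hardly move resemble many others.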

How the data were processed

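Small-intestinal RNA for each of the 4 arrays was labelled with biotin from 0.5 ug, per the labels' protocols. The authors deposited 28856 probe set values on each array, on a log2 scale as judged from their range. How they were summarised and normalized is not given in the sources used here, and they entered the fits unchanged. Of the probe sets, 21789 had 1 gene symbol in the platform annotation, 1621 had several and 5446 had none or were not listed. The gene table of GRCm38.p6 matched 21698 of the 21789 and changed 0 symbols. A gene with several probe sets was read from the one of highest mean.

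The 30% of genes with the lowest mean were left out, and 13956 were fitted with limma 3.58.1 (R 4.3.3; lmFit and eBayes, no covariates, 2 residual and 2.64 prior degrees of freedom), with Benjamini-Hochberg adjustment over all of them and a threshold of 0.05. The fit was tested on simulated data. The number of arrays limits the precision. Alternatives were other filters, quantile normalization, median centring, the mean of all probe sets, a trended prior, treat, sex type as a block and leaving out each array. The members and lists were chosen with earlier results of these data known. The text names all members and relatives, up to 6 called or 4 other fitted genes of each list with the largest differences, and the 3 genes nearest in pattern to each member; pathway counts come without a set test.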

Additional observations from a re-analysis of the deposited data

Results flagged for a closer look

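Il18r1 differed in opposite directions in the pairs of arrays: by -0.29 between XCFX and XX, and by 0.24 between XCFY and XY. Opposite signs in the pairs were found for 23.2% of the genes fitted (3231 of 13956). Each pair holds 1 array of each genotype, so the difference between the pairs was not tested.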

How the results depend on the processing

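Under quantile normalization, median centring, the mean of all probe sets and a trended prior the same 4 members were called. Without a filter 3 members were called, when 12% of all genes were, and with sex type as a block 5, when 22.3% of all genes were. With the lowest 50% of genes left out, 23% of the genes fitted were called. In that fit 3 members were tested and 1 was called, since the other 5 fell under the filter. Against a minimum log2 difference of 0.5, 63 genes and 0 members were called. Leaving out 1 array gave 40 to 6559 called genes and 0 to 7 called members: 42 and 40 genes without wild-type replicate 1 and 2, and 6559 and 4526 without CFLARs Tg replicate 1 and 2. In these fits the lone array of a genotype is assumed to vary like the other genotype's. Il18r1, not called in any setting, ranged from -0.19 to 0.14 when 1 array was left out, and was 0.08 without wild-type replicate 1 and 0.14 without CFLARs Tg replicate 1; it kept its negative sign in the other alternatives that fitted it. The cause was not tested. The wild-type signal of Il1b and Il1r2 lay close to the background scale, which limits the size of their differences.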
